A study of Mus musculus with 9 samples.

Results

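Interferon response genes are genes whose transcription is switched on by interferons, and 42 of them were followed through the hearts of 9 mice. The genes were taken by symbol from a list of antiviral effectors, guanylate-binding proteins and relatives, and parts of the immunoproteasome. Of the 42 listed, 40 were among the 21989 symbols of the deposited table, and 35 passed the filter on low values, out of 11380 genes tested in all. Mx1 and Mx2 were not analysed here. The hearts came from male C57BL/6J mice of 18 to 20 weeks, 3 in each of 3 groups. The LD mice had undergone TAC and received Lingguizhugan decoction, a Chinese herbal preparation. The TAC mice had undergone the same operation and received distilled water. The sham mice had undergone a sham operation and also received distilled water. TAC is commonly short for transverse aortic constriction, a narrowing of the aorta that makes the left ventricle pump against a higher pressure. The sources used here give no dose, no duration of treatment and no time since the operation. Poly-A RNA of heart tissue was sequenced, and levels are given as FPKM, fragment numbers corrected for the length of the gene and the depth of the library, in the order of replicates 1, 2 and 3. Differences are on the log2(FPKM + 1) scale, with the standard error of the fit (SE).

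Interferons are cytokines that cells release when they sense foreign or misplaced nucleic acid. Type I interferons bind the receptor made of Ifnar1 and Ifnar2, whose kinases Jak1 and Tyk2 phosphorylate signal transducers such as Stat2. Stat2 and Irf9 are parts of a complex that binds interferon-stimulated response elements in promoters, while interferon gamma acts mainly at gamma-activated sites. The genes switched on include sensors of viral RNA, the transcription factors that amplify the response, enzymes that block viral replication, and the machinery that prepares peptides for MHC class I. In the heart the response is best known from viral myocarditis and from the reaction to DNA and RNA released by injured cells.

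Promoters are shown for 5 genes of different families, because letters that match the core of the interferon-stimulated response element can be read in them. RefSeq promoter sequences on GRCm38.p6 matched 32 of the 42 genes by symbol, with 36 promoters in all. Each line holds up to 120 bases before the annotated start, cut back where a gene annotation begins earlier, 5′ to 3′ on the strand of the gene. Capitals mark each match to the core of the response element, GAAA followed by any 2 bases and again GAAA, on either strand. The windows are Ifit1 (chr19:34640769-34640870, plus strand), Isg15 (chr4:156200819-156200938, minus strand), Oas1a (chr5:120907526-120907645, minus strand), Rsad2 (chr12:26456453-26456572, minus strand) and Gbp7 (chr3:142530216-142530335, plus strand).
Ifit1: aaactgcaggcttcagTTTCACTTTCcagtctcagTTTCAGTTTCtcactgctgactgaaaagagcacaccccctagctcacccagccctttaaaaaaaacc
Isg15: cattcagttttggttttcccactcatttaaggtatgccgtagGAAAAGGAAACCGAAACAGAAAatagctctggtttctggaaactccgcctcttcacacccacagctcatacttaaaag
Oas1a: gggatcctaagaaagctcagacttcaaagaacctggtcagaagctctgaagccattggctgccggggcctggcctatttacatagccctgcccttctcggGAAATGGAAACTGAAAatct
Rsad2: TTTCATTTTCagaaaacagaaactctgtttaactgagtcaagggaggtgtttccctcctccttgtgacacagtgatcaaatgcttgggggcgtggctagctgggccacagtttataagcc
Gbp7: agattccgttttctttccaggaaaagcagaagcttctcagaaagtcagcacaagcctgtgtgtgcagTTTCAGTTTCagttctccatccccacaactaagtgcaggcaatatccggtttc
Ifit1 holds 2 separate matches, both on the opposite strand, whereas the 3 matches of Isg15 and the 2 of Oas1a overlap each other. In the 250 bases before the start, the core was present in 14 of the 32 genes (43.75%), against 3.46% of all 27025 genes in the promoter table. Among genes that passed the filter it was present in 12 of 27 response genes (44.4%), against 3.08% of 8765 genes. The core of the gamma-activated site, TTCNNNGAA, was present in 8 of the 32 genes (25.0%), against 8.13% of all genes. It occurred beside the response element in Bst2, Gbp5, Gbp7, Igtp and Oas1a, and without it in Ifit2, Irf1 and Psmb8. The search covered both strands and exact letters. A match is a description of the letters and not evidence of binding.

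**Figure D1:**
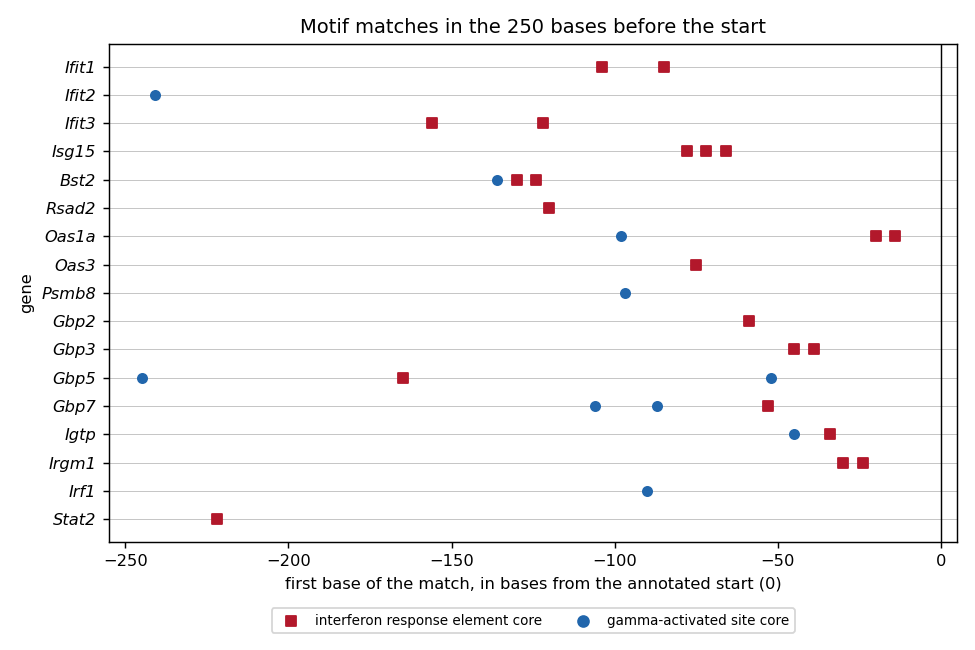
Positions of motif matches in the 250 bases before the annotated start, 1 row per gene with at least 1 match; the horizontal axis gives the first base of the match in bases from the start, squares the response element core and circles the gamma-activated site core. Most squares lie within 130 bases of the start, with Ifit3, Gbp5 and Stat2 further out.

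Library totals recovered from the FPKM values were 7.43 to 18.1 M fragments in LD, 8.40 to 14.9 M in TAC and 14.5 to 18.1 M in sham hearts. The first principal component over all genes (29.4% of the variance) set TAC 3 and LD 3 apart from the other 7 libraries. They lay at opposite ends, at -51.0 and 48.3. LD 3 had a mean over all genes 0.24 below the sham mean on the log2 scale. Small recovered fragment numbers were mostly even in TAC 2, TAC 3, Sham 1 and Sham 3 (91.2% to 94.1% of values from 2 to 21), mixed in LD 1, LD 2, TAC 1 and Sham 2 (49.8% to 53.0%), and in between in LD 3 (62.3%). All 8 heart muscle markers were above 0 in every library. No gene of the 11380 passed an adjusted p of 0.05 with limma in any of the 3 comparisons, so that the members below are described by their values, their order over libraries and the counts beside those of all genes.

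With decoction, most interferon response genes had lower fitted levels than in TAC hearts on water, though none passed the adjusted test. Of the 35 tested members, 32 had a log2 difference below 0 between LD and TAC hearts and 3 above 0 (Dhx58, Psmb10 and Ifi35), against 60.4% of all genes below 0 and 39.6% above. Their median difference was -0.52, against -0.10 for all genes. No member passed in limma after Benjamini-Hochberg adjustment over all genes (smallest adjusted p = 0.537). At an unadjusted p under 0.05 there were 8 lower (Ifi44, Cmpk2, Ifit1, Gbp2, Irf9, Ddx58, Gbp7 and Irgm1) and 1 higher (Psmb10), against 6.31% of all genes lower and 2.51% higher. In 8 members every LD heart lay below every TAC heart (Ifi44, Cmpk2, Gbp2, Ddx58, Irgm1, Ifit2, Xaf1 and Ifih1), against 8.14% of all genes, and in 1, Psmb10, every LD heart lay above, against 3.73%. Relative to the median of all genes, 27 members were lower and 8 higher, and after median-of-ratios scaling, which puts the median of all genes at 0.01, the split was again 27 below 0 and 8 above, with a member median of -0.39. Under that scaling 4 members lay below without overlap (5.61% of all genes). Single libraries moved these counts: without TAC 2, 19 members had an unadjusted p under 0.05 in the lower direction (6.43% of all genes), and 22 had no overlap (15.4%). Without LD 3 the first count was 3 (2.75% of all genes), and without TAC 1 or TAC 3 it was 5 (10.5% and 3.58% of all genes).

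TAC hearts on water had higher fitted levels than sham hearts for most of the list. Of the 35 tested members, 25 had a log2 difference above 0 between TAC and sham hearts and 10 below, against 50.0% of all genes on each side. Their median was 0.25, against -7.2e-05 for all genes. No member passed in limma (smallest adjusted p = 0.829). Cmpk2 alone had an unadjusted p under 0.05, in the higher direction, against 2.85% of all genes higher and 2.58% lower. Cmpk2, Gbp2 and Rsad2 were higher in every TAC heart than in any sham heart, against 5.22% of all genes, and no member was lower without overlap (4.62%). Without TAC 2, 11 members had an unadjusted p under 0.05 in the higher direction (2.44% of all genes) and 13 had no overlap (10.8%). Without TAC 1 the median was 0.01, with 18 members above 0 and 17 below, and 3 members were higher and 3 lower without overlap (15.1% and 13.2% of all genes). Without Sham 1, 8 members were higher without overlap (10.1%), and without TAC 3 it was 5 (10.8%).

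Between LD and sham hearts the median of the list lay below that of all genes, but not without Sham 1. Of the 35 tested members, 27 were below 0 and 8 above, against 62.8% of all genes below and 37.2% above, and the median was -0.24 against -0.11. No member passed in limma (smallest adjusted p = 0.671). Ifi44 alone had an unadjusted p under 0.05, in the lower direction, against 3.59% of all genes lower and 1.52% higher. Ddx58, Oas2 and Parp14 were lower without overlap, against 8.76% of all genes, and Psmb10 and Irf1 higher, against 4.47%. The lower count was 10 without LD 1, 7 without LD 2, 8 without Sham 2 and 5 without Sham 3 (22.3%, 14.9%, 16.2% and 16.3% of all genes). The higher count was 4 without LD 3 or without Sham 3 (9.29% and 8.05%). Without Sham 1 the median was -0.08, against -0.09 for all genes, with 20 members below 0 and 15 above, and without LD 3 it was -0.12, against -0.03. With median-of-ratios scaling 22 members were below 0 and 13 above. The TAC hearts enter both of the first 2 comparisons and the sham hearts enter both comparisons against sham, so that these comparisons are not independent of each other. The p-values rest on the spread between mice within their groups, pooled over the 3 groups and moderated by limma across genes. The labels call the 3 mice of a group biological repeats. In whole tissue, fewer cells of a type and less RNA per cell cannot be told apart.

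**Figure D2:**
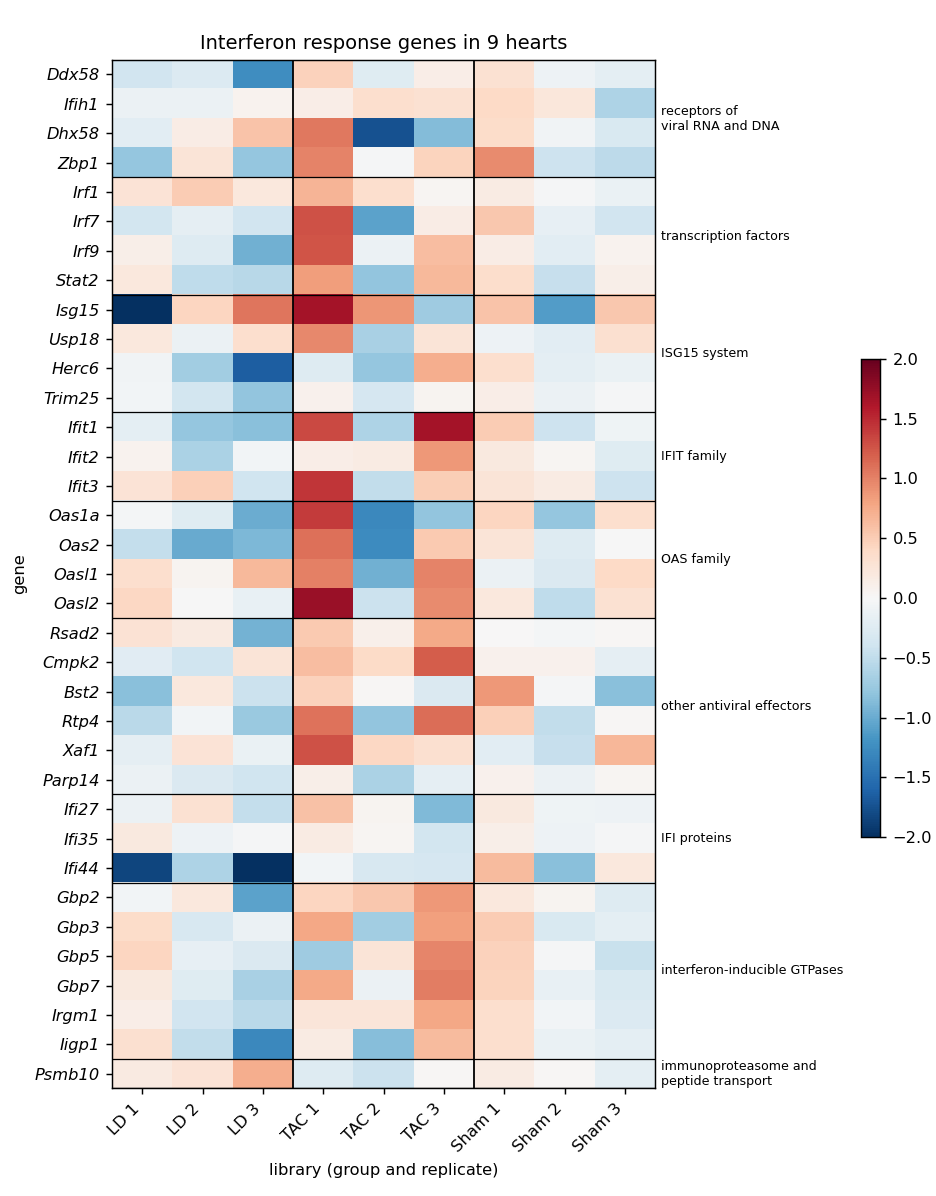
Level of the 35 tested members in each heart, as log2(FPKM + 1) minus the sham mean of the gene (red above, blue below, colours ending at ±2), with libraries in columns and genes in rows by role. Cells are red in 31 genes for TAC 1, 27 for TAC 3 and 32 for Sham 1, and in 13 or fewer for TAC 2 and the other sham hearts.

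The receptors that detect viral nucleic acid were led by Ddx58, which encodes RIG-I, the sensor of uncapped double-stranded RNA ends. Ddx58 had 5.04, 5.51 and 2.33 FPKM in LD hearts, 9.80, 5.68 and 7.58 FPKM in TAC hearts and 8.71, 6.32 and 5.84 FPKM in sham hearts. Every LD heart lay below every TAC and sham heart, by a narrow margin at TAC 2, while TAC and sham hearts overlapped. The log2 difference was -0.75 ± 0.32 between LD and TAC (limma adjusted p = 0.540) and -0.63 ± 0.32 between LD and sham (adjusted p = 0.875). Ifih1, the sensor of long double-stranded RNA also called MDA5, ranged over 1.52 to 4.07 FPKM, with all LD hearts below all TAC hearts (-0.31 ± 0.30). Zbp1, which binds left-handed nucleic acid and can start necroptosis, ranged over 0 to 2.42 FPKM and was listed at 0 in LD 1 and LD 3. Dhx58, a relative of RIG-I that regulates both sensors, ranged over 0 to 5.97 FPKM, was listed at 0 in TAC 2 and had the opposite sign, 0.69 ± 0.54, between LD and TAC.

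Irf9 and Stat2, the DNA-binding and activating parts of the complex formed after type I interferon, were highest in TAC 1 and TAC 3. Irf9 had 18.9, 14.4 and 8.46 FPKM in LD hearts, 42.8, 15.9 and 27.3 FPKM in TAC hearts and 19.3, 14.8 and 18.3 FPKM in sham hearts. TAC 1 and TAC 3 were the highest of the 9 hearts, whereas TAC 2 lay within the range of the LD and sham hearts. The difference was -0.95 ± 0.35 between LD and TAC (limma adjusted p = 0.537) and 0.58 ± 0.35 between TAC and sham (adjusted p = 0.974). Stat2 ranged over 12.6 to 40.99 FPKM, again highest in TAC 1 and lowest in TAC 2. Irf7, which drives the transcription of type I interferon genes, had the highest mean level of the 4 factors. Irf7 had 29.8, 34.0 and 29.3 FPKM in LD hearts, 95.1, 17.9 and 42.9 FPKM in TAC hearts and 56.4, 34.5 and 29.6 FPKM in sham hearts. TAC 1 was the highest and TAC 2 the lowest of all hearts, and the groups overlapped. Irf1, a factor induced strongly by interferon gamma, had 13.4, 16.0 and 12.7 FPKM in LD hearts, 18.0, 14.1 and 11.2 FPKM in TAC hearts and 12.3, 10.7 and 9.82 FPKM in sham hearts. All LD hearts lay above all sham hearts by a small margin (0.33 ± 0.25, limma adjusted p = 0.875), and LD and TAC hearts overlapped.

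Isg15 encodes a ubiquitin-like protein that is attached to other proteins, and Herc6, Usp18 and Trim25 act on it or beside it. Isg15 had 0.712, 9.66 and 15.5 FPKM in LD hearts, 23.9, 13.5 and 3.84 FPKM in TAC hearts and 10.7, 2.64 and 10.5 FPKM in sham hearts. The spread within each group was wide, with 4 recovered fragments in LD 1, and the groups overlapped in all comparisons. Herc6, the main ligase of Isg15 in mice, had 6.07, 3.57 and 1.36 FPKM in LD hearts, 5.21, 3.32 and 11.3 FPKM in TAC hearts and 8.29, 5.44 and 5.75 FPKM in sham hearts. LD 3 was the lowest and TAC 3 the highest heart, and the groups overlapped. Trim25, a ubiquitin ligase that activates RIG-I, had 9.72, 7.68 and 5.44 FPKM in LD hearts, 10.9, 7.81 and 10.6 FPKM in TAC hearts and 11.2, 9.34 and 9.98 FPKM in sham hearts. LD 3 was again the lowest, and the difference between LD and sham was -0.40 ± 0.27 (limma adjusted p = 0.875). Usp18, which removes Isg15 from proteins and brakes the type I receptor, ranged over 2.96 to 11.1 FPKM, with its highest value in TAC 1 and its lowest in TAC 2.

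The IFIT proteins bind foreign RNA and block its translation, and their genes lie side by side on chromosome 19. Ifit1 had 7.25, 4.51 and 4.27 FPKM in LD hearts, 22.7, 5.15 and 28.8 FPKM in TAC hearts and 12.4, 6.06 and 7.89 FPKM in sham hearts. TAC 1 and TAC 3 were the highest of all hearts, while TAC 2 lay inside the range of the LD hearts. This gave the largest difference between LD and TAC among the tested members, -1.39 ± 0.48 (limma adjusted p = 0.537), beside 0.79 ± 0.48 between TAC and sham (adjusted p = 0.974). Without TAC 2 these differences were -2.10 and 1.49. Ifit2 ranged over 4.54 to 14.5 FPKM, with every LD heart below every TAC heart (-0.59 ± 0.29). Ifit3 ranged over 5.32 to 22.96 FPKM, and 51.2% of its 50-base stretches also occur in other genes, mostly Ifit3b, so that its level is uncertain. Smaller shares of such stretches were found in Gbp7 (12.7%), Herc6 (12.5%), Rtp4 (11.6%) and Ifit1 (7.13%).

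The OAS enzymes make a short oligoadenylate that activates RNase L, which cleaves viral and cellular RNA. Oas2 had 6.91, 4.53 and 4.90 FPKM in LD hearts, 22.6, 3.63 and 15.0 FPKM in TAC hearts and 12.2, 8.30 and 10.1 FPKM in sham hearts. Its 3 TAC hearts held both the highest and the lowest value of the 9, and all LD hearts lay below all sham hearts (-0.80 ± 0.46, limma adjusted p = 0.875). Oasl2 had 8.63, 6.21 and 5.48 FPKM in LD hearts, 22.8, 4.37 and 12.8 FPKM in TAC hearts and 7.34, 4.06 and 7.90 FPKM in sham hearts. TAC 1 and TAC 3 were the highest hearts and TAC 2 lay among the others, with a difference of 0.75 ± 0.44 between TAC and sham (limma adjusted p = 0.974). Oasl1, which in mice restrains the translation of Irf7, ranged over 0.475 to 4.78 FPKM and had nearly the same fitted level in LD and TAC hearts, with an SE of 0.46. Oas1a ranged over 1.04 to 12.2 FPKM, and 57.6% of its 50-base stretches are shared, mostly with Oas1g. Oas3 stayed at 0 to 0.562 FPKM and did not pass the filter.

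Rsad2 and Cmpk2 are neighbours on chromosome 12 and encode viperin, which makes a nucleotide that ends viral RNA chains, and a mitochondrial nucleotide kinase. Cmpk2 had 6.23, 5.36 and 9.08 FPKM in LD hearts, 12.0, 10.0 and 18.5 FPKM in TAC hearts and 7.98, 7.99 and 6.40 FPKM in sham hearts. Every TAC heart, TAC 2 included, lay above every LD and every sham heart. The difference was -0.86 ± 0.29 between LD and TAC (limma adjusted p = 0.537) and 0.74 ± 0.29 between TAC and sham (adjusted p = 0.829). Rsad2 had 41.7, 38.3 and 17.1 FPKM in LD hearts, 49.0, 36.2 and 58.0 FPKM in TAC hearts and 34.1, 33.1 and 34.4 FPKM in sham hearts. All TAC hearts lay above all sham hearts, which were close together, but LD 1 and LD 2 lay above TAC 2. The difference between TAC and sham was 0.46 ± 0.31 (limma adjusted p = 0.991).

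Bst2, or tetherin, holds budding viruses at the cell surface and was among the members with the highest FPKM. Bst2 had 50.1, 104 and 66.9 FPKM in LD hearts, 124, 91.9 and 73.6 FPKM in TAC hearts and 166, 88.4 and 49.96 FPKM in sham hearts. Sham 1 was the highest and Sham 3 the lowest heart, and no comparison separated the groups. Xaf1, which opposes an inhibitor of apoptosis, had 5.31, 7.68 and 5.51 FPKM in LD hearts, 16.3, 8.52 and 7.98 FPKM in TAC hearts and 5.22, 4.21 and 10.3 FPKM in sham hearts. Each LD heart lay below each TAC heart, narrowly at LD 2 and TAC 3, while Sham 3 lay above both TAC 2 and TAC 3. The difference was -0.68 ± 0.34 between LD and TAC (limma adjusted p = 0.579) and 0.67 ± 0.34 between TAC and sham (adjusted p = 0.951). Rtp4 ranged over 4.88 to 21.02 FPKM and Parp14, an ADP-ribosyltransferase, over 3.18 to 6.05 FPKM. Parp14 was lower in every LD heart than in any sham heart (-0.27 ± 0.27).

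Ifi44 had the smallest p of the members both between LD and TAC and between LD and sham hearts. Ifi44 had 0.787, 3.14 and 0.428 FPKM in LD hearts, 5.11, 4.11 and 4.07 FPKM in TAC hearts and 8.84, 2.58 and 6.37 FPKM in sham hearts. Each LD heart lay below each TAC heart, whereas LD 2 lay above Sham 2, and the sham hearts spread more widely than the TAC hearts. The difference was -1.30 ± 0.43 between LD and TAC (limma adjusted p = 0.537), -1.54 ± 0.43 between LD and sham (adjusted p = 0.671) and -0.24 ± 0.43 between TAC and sham. LD 1 and LD 3 rested on 17 and 20 fragments, against 466 in Sham 1. Ifi27, a small membrane protein, had 73.1, 98.5 and 56.8 FPKM in LD hearts, 119, 82.4 and 42.5 FPKM in TAC hearts and 90.3, 74.6 and 73.4 FPKM in sham hearts. TAC 1 was its highest and TAC 3 its lowest heart, and no comparison separated the groups. Ifi35 ranged over 41.02 to 61.0 FPKM, a narrow range, and 16.8% of its exon length overlaps other annotated genes.

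Guanylate-binding proteins and immunity-related GTPases attack the membranes around intracellular pathogens and respond mainly to interferon gamma. All 6 that were tested had lower fitted levels in LD than in TAC hearts, also after median-of-ratios scaling. Gbp2 had 9.76, 11.9 and 4.31 FPKM in LD hearts, 14.01, 15.1 and 19.4 FPKM in TAC hearts and 12.0, 10.5 and 8.29 FPKM in sham hearts. As with Cmpk2, every TAC heart lay above every LD and every sham heart. The difference was -0.91 ± 0.32 between LD and TAC (limma adjusted p = 0.537) and 0.61 ± 0.32 between TAC and sham (adjusted p = 0.958). Gbp7 had 21.03, 15.2 and 11.2 FPKM in LD hearts, 31.3, 16.7 and 38.0 FPKM in TAC hearts and 25.0, 16.4 and 14.6 FPKM in sham hearts. TAC 1 and TAC 3 were highest and TAC 2 lay below LD 1, with -0.78 ± 0.33 between LD and TAC (limma adjusted p = 0.540) and 0.55 ± 0.33 between TAC and sham (adjusted p = 0.974).

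Irgm1, a regulator of the other GTPases, ranged over 3.95 to 11.2 FPKM, and every LD heart lay below every TAC heart (-0.68 ± 0.29, limma adjusted p = 0.540). Iigp1, which coats the vacuoles of parasites, had 28.6, 15.9 and 8.70 FPKM in LD hearts, 25.5, 12.1 and 36.0 FPKM in TAC hearts and 28.9, 20.6 and 19.6 FPKM in sham hearts. TAC 3 was highest and LD 3 lowest, and the groups overlapped. Gbp3 ranged over 8.73 to 26.8 FPKM and Gbp5, which also promotes inflammasome assembly, over 2.48 to 10.3 FPKM, with no separation of groups. Igtp stayed at 0.0137 to 0.1996 FPKM and did not pass the filter. Its exons overlap those of Irgm2.

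Psmb10 replaces a constitutive catalytic subunit when the immunoproteasome is assembled, and its differences had the opposite sign to most of the list. Psmb10 had 88.4, 94.0 and 129.9 FPKM in LD hearts, 64.8, 57.8 and 79.1 FPKM in TAC hearts and 87.8, 79.1 and 68.2 FPKM in sham hearts. Every LD heart lay above every TAC heart and every sham heart, narrowly at LD 1 and Sham 1. The difference was 0.61 ± 0.23 between LD and TAC (limma adjusted p = 0.537) and 0.39 ± 0.23 between LD and sham (adjusted p = 0.875). The constitutive subunits Psmb5 and Psmb7 had differences of 0.54 ± 0.28 and 0.20 ± 0.26 between LD and TAC, also with no pass in limma (adjusted p = 0.583 and 0.806). The remaining constitutive subunit, Psmb6, had the opposite sign (-0.16) and was uneven between hearts.

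The other parts of the immunoproteasome lay near 0 in most libraries. Psmb8, Psmb9 and the peptide transporter Tap1 lie next to each other in the MHC region (GRCm38 chromosome 17, 34181987 to 34201454), and none passed the filter. Psmb8 ranged over 0.0275 to 2.36 FPKM, with 185 recovered fragments in LD 3 and 2 to 18 in the other hearts. Psmb9 ranged over 0 to 2.86 FPKM, with 148 fragments in TAC 2, 54 in LD 3 and 41 in LD 1, against 10 or fewer elsewhere. Tap1 ranged over 0.00936 to 0.454 FPKM. In the same region Tap2 and Tapbp reached at most 1.25 and 0.311 FPKM, while H2-K1, a class I heavy chain, had 13.6, 1.04 and 3.99 FPKM in LD hearts, 0.894, 0.930 and 1.81 FPKM in TAC hearts and 1.71, 15.8 and 11.4 FPKM in sham hearts. Its partner B2m, on another chromosome, ranged over 275 to 731 FPKM. The fitted difference of H2-K1 was -1.93 ± 0.68 between TAC and sham (limma adjusted p = 0.772), with LD 2 and Sham 1 near the TAC hearts. The constitutive subunit Psmb6 was also uneven, over 0.520 to 16.8 FPKM. Why these genes are low or uneven in the table was not tested, and no group difference is drawn from them.

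**Figure D3:**
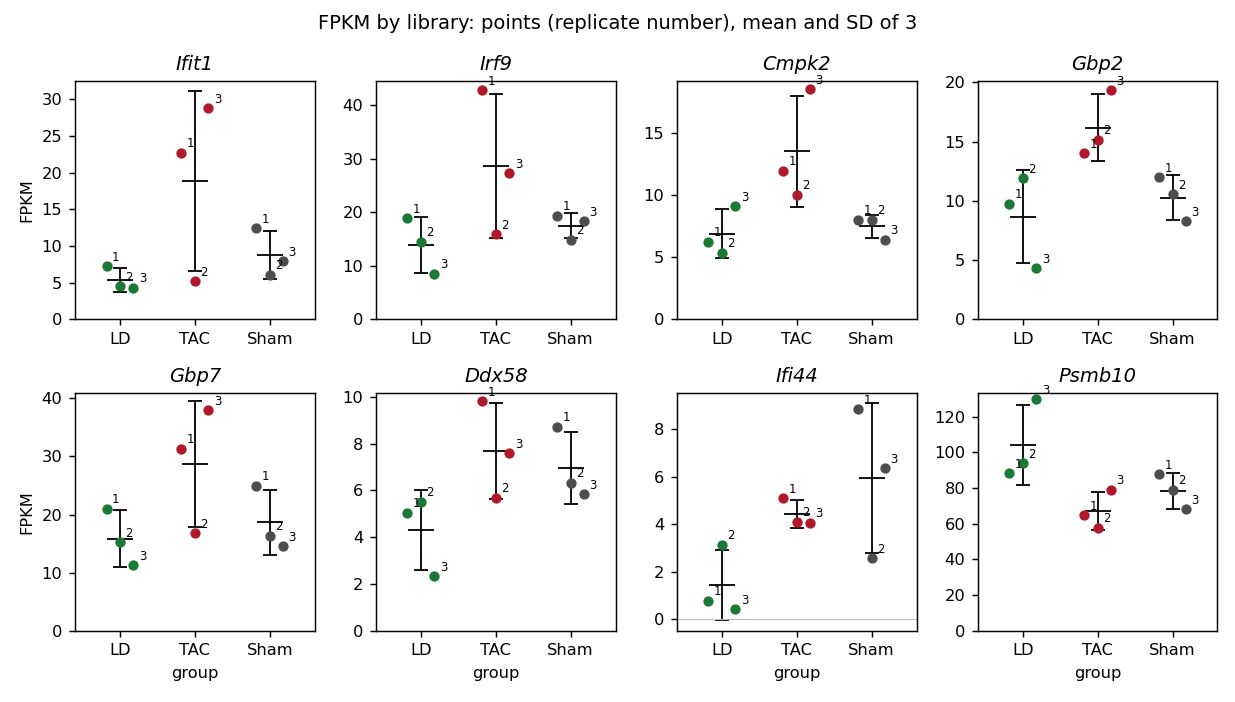
FPKM of 8 members in each heart (points with replicate numbers), with the mean and SD of 3 hearts per group as black bars. For Cmpk2 and Gbp2 all TAC points lie above all LD and sham points, for Ifit1, Irf9 and Gbp7 TAC 2 lies at the level of the other groups, and for Psmb10 the LD points are the highest.

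**Figure D4:**
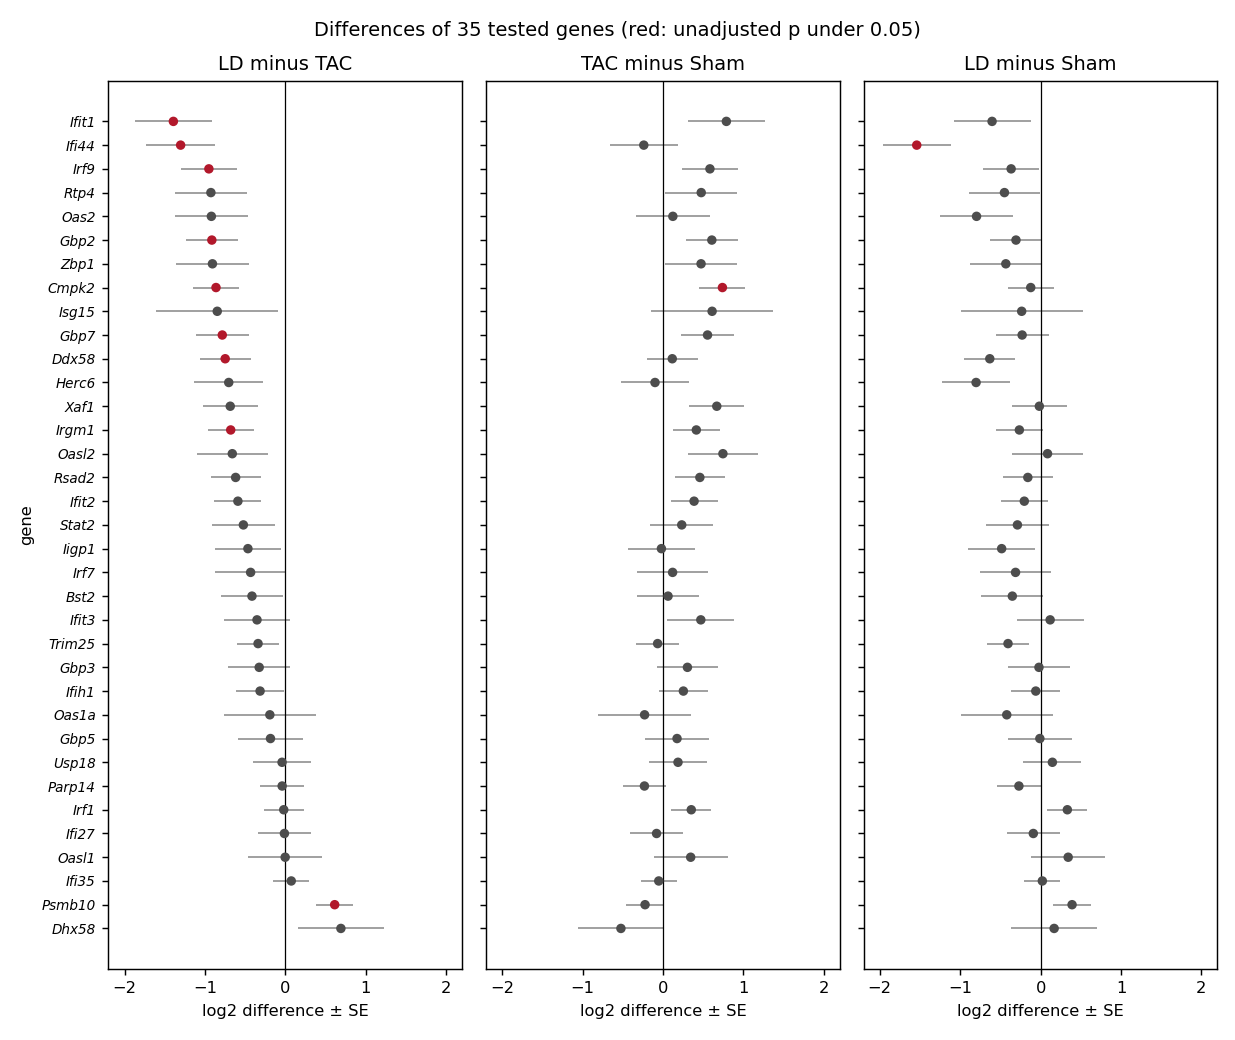
Log2 differences of the 35 tested members with their standard errors in the 3 comparisons, ordered by the difference between LD and TAC, with red points for an unadjusted p under 0.05. The left panel lies mostly below 0, the middle panel mostly above 0, and no point passed after adjustment.

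Replicates of the TAC group did not behave alike, and the pattern was shared by many members. This order over libraries was singled out after the values had been seen. TAC 2 was the lowest of the 3 TAC hearts in 24 of 35 members, against 33.0% of all genes. TAC 1 and TAC 3 both lay above every LD heart in 22 of 35, against 15.4% of all genes. TAC 1 was the highest of the 9 hearts in 17 members (12.8% of all genes) and TAC 3 in 12 (27.3%), while TAC 2 was the lowest of the 9 in 12 (10.7%) and LD 3 in 11 (31.6%). The mean over the 35 members, relative to the sham mean on the log2 scale, was -0.14, -0.14 and -0.43 in LD hearts 1 to 3, 0.67, -0.31 and 0.37 in TAC hearts and 0.30, -0.22 and -0.09 in sham hearts. LD hearts were closer together than TAC hearts, and TAC 2 lay between LD 3 and the other LD hearts. Among the hearts with mostly even small fragment numbers (TAC 2 and 3 against Sham 1 and 3) the median difference of the members between TAC and sham was -0.11, and among those with mixed numbers (TAC 1 against Sham 2) it was 0.77. Among mixed hearts it was -0.78 between LD 1 and 2 and TAC 1, and 0.14 between LD 1 and 2 and Sham 2. The part of the even and mixed numbers in these differences was not tested.

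**Figure D5:**
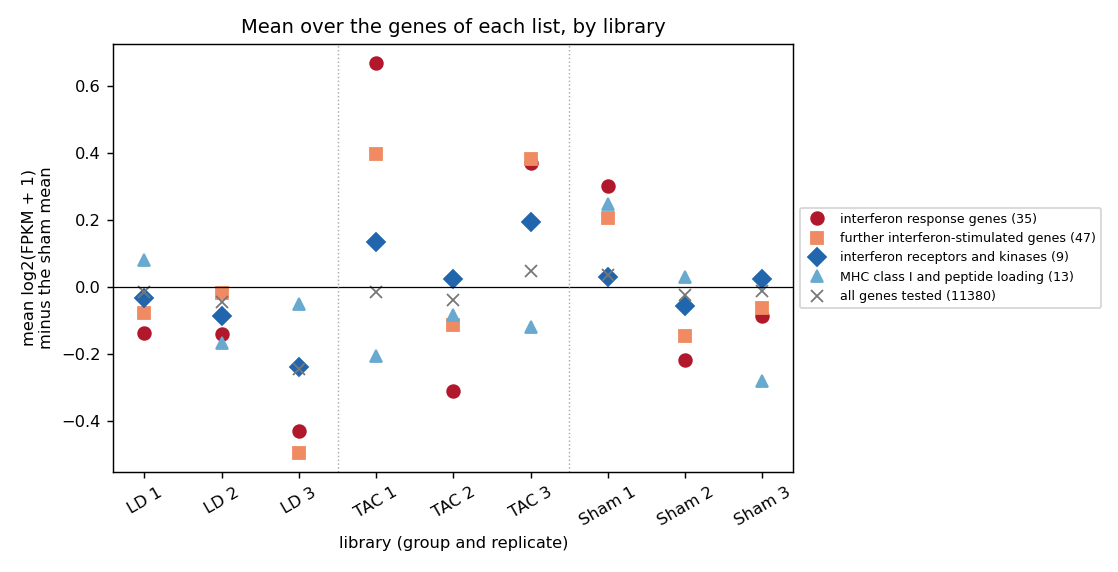
Mean level of 5 gene sets in each heart, as log2(FPKM + 1) minus the sham mean, with the number of genes of each set in the legend. Members and further interferon-stimulated genes are highest in TAC 1, TAC 3 and Sham 1 and lowest in LD 3, while the crosses for all genes stay near 0 in every heart but LD 3.

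Upstream of these genes, no interferon transcript passed the filter. Of 10 interferon genes listed, 9 were listed at 0 in every heart, among them Ifnb1 and the alpha interferons Ifna1, Ifna2, Ifna4 and Ifna5. Ifng, the gene of interferon gamma, was listed at 0.503 FPKM in LD 2, 1.96 in LD 3 and 0.393 in TAC 1, and at 0 in the other hearts. Such values do not show that the transcripts were absent. All 9 receptor chains and kinases were tested, and 7 were below 0 between LD and TAC (60.4% of all genes) and 7 above 0 between TAC and sham (50.0%). Jak1, a kinase of both receptors, had 14.8, 16.3 and 12.6 FPKM in LD hearts, 17.4, 20.97 and 28.3 FPKM in TAC hearts and 16.7, 18.8 and 13.8 FPKM in sham hearts. Every LD heart lay below every TAC heart (-0.56 ± 0.25, limma adjusted p = 0.557). Ifngr1, the ligand-binding chain for interferon gamma, had 29.95, 37.9 and 45.9 FPKM in LD hearts, 37.6, 68.7 and 55.3 FPKM in TAC hearts and 33.6, 37.4 and 34.4 FPKM in sham hearts, so that all TAC hearts lay above all sham hearts, narrowly at TAC 1 and Sham 2 (0.56 ± 0.26, limma adjusted p = 0.918). Here TAC 2 was the highest heart. Il10rb, which serves lambda interferons, differed by -0.49 ± 0.26 between LD and TAC.

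Of 12 signal transducers and brakes, 10 were below 0 between LD and TAC (60.4% of all genes), and 1 of them had an unadjusted p under 0.05 (6.31%). Between TAC and sham 4 were above 0 and 8 below (50.0% of all genes on each side), with a median of -0.11. Irf2, a factor that opposes Irf1, was lower in every LD heart than in any TAC or sham heart, with -0.62 ± 0.26 between LD and TAC (limma adjusted p = 0.540). Ptpn2, a phosphatase that dampens cytokine signalling, was lower than sham in all LD and all TAC hearts (-0.62 ± 0.27 between LD and sham and -0.56 ± 0.27 between TAC and sham). Of 14 adaptors of nucleic acid sensing 12 were tested, of which 9 were below 0 between LD and TAC (60.4% of all genes). None had an unadjusted p under 0.05 (6.31% of all genes lower and 2.51% higher). Their median was -0.09, close to -0.10 for all genes. Mb21d1, which encodes the DNA sensor cGAS, had 0.335, 0.450 and 0 FPKM in LD hearts, 1.16, 0.730 and 0.908 FPKM in TAC hearts and 1.57, 1.12 and 1.52 FPKM in sham hearts. Outside the sham hearts it reached 1 FPKM only in TAC 1, so it passed the filter through the group where it was high. It is among the 9 above, and its differences are not given as a test. Unc93b1, which carries nucleic acid sensing Toll-like receptors to endosomes, was lower in every LD heart than in any TAC or sham heart, narrowly at LD 1 and TAC 1 (-0.62 ± 0.26 between LD and sham). Trex1, which degrades cytosolic DNA, differed by -0.84 ± 0.45 between TAC and sham, with overlap.

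A list of 59 further interferon-stimulated genes, 47 of them tested, lay on the same sides as the members. The list holds Ifit3b and Oas1g, which share 50-base stretches with Ifit3 and Oas1a, so it is not wholly separate from the members. Between LD and TAC 40 were below 0 and 7 above (60.4% and 39.6% of all genes). The median was -0.35, against -0.10 for all genes. At an unadjusted p under 0.05, 12 were lower and none higher (6.31% and 2.51% of all genes). Between TAC and sham 36 were above 0 and 11 below (50.0% of all genes on each side). The median was 0.19, against -7.2e-05 for all genes. At an unadjusted p under 0.05, 4 were higher and none lower (2.85% and 2.58% of all genes). No gene of the list passed in limma (smallest adjusted p = 0.339 and 0.604 in these comparisons). Lgals9, a lectin that binds immune receptors, had 7.22, 11.3 and 4.20 FPKM in LD hearts, 16.7, 21.95 and 24.9 FPKM in TAC hearts and 18.0, 12.2 and 15.4 FPKM in sham hearts. Every LD heart lay below every TAC and every sham heart, with -1.44 ± 0.31 between LD and TAC (limma adjusted p = 0.339). Slfn5 had 43.9, 35.2 and 16.4 FPKM in LD hearts, 69.9, 62.3 and 67.6 FPKM in TAC hearts and 66.6, 48.3 and 54.1 FPKM in sham hearts. It too was lowest in the LD hearts, without overlap (-1.15 ± 0.31 between LD and TAC, limma adjusted p = 0.464). Ube2l6, the enzyme that passes Isg15 to its ligases, had 9.32, 8.90 and 7.41 FPKM in LD hearts, 12.3, 17.4 and 14.4 FPKM in TAC hearts and 8.84, 6.35 and 6.59 FPKM in sham hearts. All TAC hearts lay above all LD and sham hearts, with -0.71 ± 0.25 between LD and TAC and 0.93 ± 0.25 between TAC and sham (limma adjusted p = 0.537 and 0.604). These 3 genes were named for their small p, which favours genes whose TAC hearts agree, and in them TAC 2 stood with the other TAC hearts. The MHC class I and peptide loading list did not lie on the side of the members between LD and TAC. There 8 of 13 tested genes were above 0 (39.6% of all genes), with a median of 0.13 against -0.10 for all genes. The list includes H2-K1, from which no group difference is drawn. Psme1, part of the proteasome activator induced by interferon gamma, differed by 0.22 ± 0.23 between LD and TAC, and Pdia3, of the loading complex, by -0.62 ± 0.32.

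Summed levels of cell type markers lay apart between some groups for some lists and overlapped for others, and no marker passed in limma. The sums are of unscaled log2(FPKM + 1) values and were not repeated with median-of-ratios scaling. The size factors by which that scaling divides ran from 0.86 in LD 3 to 1.12 in TAC 3, and a sum carries such an offset once per gene. Separations by a narrow margin may therefore not hold after scaling. The 12 macrophage markers were all above 0 in every heart, and their summed log2 level was 40.6 to 45.9 in LD, 46.1 to 49.7 in TAC and 42.4 to 46.9 in sham hearts. Before scaling, LD thus lay below TAC without overlap, narrowly at LD 2 and TAC 1, whose size factors were 0.999 and 1.04. Of these markers 10 were below 0 between LD and TAC (60.4% of all genes) and 10 above 0 between TAC and sham (50.0%). The 8 fibroblast markers summed to 37.0 to 39.6 in LD, 38.5 to 47.7 in TAC and 35.3 to 40.3 in sham hearts. All 8 were below 0 between LD and TAC (60.4% of all genes) and all 8 above 0 between TAC and sham (50.0%). The 5 red blood cell markers summed to 32.9 to 38.9 in LD, 36.3 to 49.9 in TAC and 27.7 to 41.3 in sham hearts. Within the TAC group the order differed from that of the members: TAC 1, with the highest mean over members, had the lowest macrophage sum (46.1) and fibroblast sum (38.5) of the 3, and TAC 2, with the lowest mean over members, had sums of 48.1 and 46.1. Heart muscle sums were 90.0 to 93.0 in LD, 89.0 to 90.3 in TAC and 90.7 to 91.3 in sham hearts. Before scaling, TAC thus lay below sham without overlap. The nearest hearts were TAC 2 and Sham 1, with size factors of 1.01 and 1.08. Endothelial sums were 50.4 to 51.5 in LD, 51.6 to 53.4 in TAC and 50.0 to 53.5 in sham hearts, with LD narrowly below TAC before scaling, again at LD 2 and TAC 1. The sums of 5 inflammatory monocyte markers, all but Ccr2 at 0 in some heart, were 2.54 to 2.65 in LD, 3.11 to 3.44 in TAC and 1.11 to 3.13 in sham hearts, again lower in every LD heart than in any TAC heart. Markers of T cells were near 0, with summed levels of 1.35 to 4.06 in LD, 1.27 to 2.22 in TAC and 0.513 to 2.75 in sham hearts over 10 listed genes, none above 0 in every heart. Neutrophil sums were 3.68 to 10.5 in LD, 4.82 to 7.26 in TAC and 3.04 to 5.46 in sham hearts. Of 3 tested neutrophil markers 2 were above 0 between LD and TAC (39.6% of all genes) and 3 between LD and sham (37.2%). Neutrophil, B cell, natural killer cell and dendritic cell sums overlapped between all groups. The plasmacytoid dendritic cell list, which shares Bst2 with the members, had Pacsin1 at 0 in every heart and Siglech, Ccr9 and Ly6d at 0 in some. The part of cell content in the differences between the groups was not tested.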

How the data were processed

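The data are levels of poly-A RNA in whole heart tissue of 9 mice, deposited by the authors as FPKM per gene and library. The submitters' processing notes name the aligner HISAT2 2.1.0 with GRCm38, HTSeq 0.7.2 and DESeq, Cufflinks 2.2.1, and for the reads CASAVA 1.8 and fastp 0.20.0. How the FPKM values were made from these, and the gene annotation, are not stated there. The library protocol in the labels names no step that keeps strand, so reads of overlapping genes may not have been told apart. Many low FPKM values were whole multiples of 1 fragment (tolerance 0.001), from which library totals and fragment numbers per gene were recovered.

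The filter kept genes that reached 1 FPKM in 3 or more libraries (11380 of 21989). A linear model with 3 groups was fitted with limma 3.58.1 (trend; R 4.3.3) to log2(FPKM + 1), p-values are two-sided, and Benjamini-Hochberg adjustment ran over all genes tested with a threshold of 0.05. The pseudocount of 1 understates changes of low genes. The code was tested on simulated data. Motifs were searched by exact letters with Python 3.11.15. Values in every heart are given for the 8 members of smallest p in each comparison and for the member of highest mean FPKM in each role group, and ranges for the others. Of each further list up to 3 genes of smallest p are named; B2m, Tap2 and Tapbp were named after their values had been seen. Members and gene lists were chosen with earlier results of these data known. Alternatives covered pseudocount, filter, scaling, library weights, a count model on recovered fragments, single libraries left out and a replicate block. Subsets by even or mixed fragment numbers were added after the data had been seen.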

Additional observations from a re-analysis of the deposited data

How the results depend on the processing

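No member passed an adjusted p of 0.05 in limma or in any alternative. The median difference of the members stayed below 0 between LD and TAC hearts in all alternatives (-0.81 to -0.25), but took both signs between TAC and sham (-0.11 to 0.77) and between LD and sham (-0.30 to 0.14). The even subset gave -0.11 and the mixed subset 0.77 between TAC and sham, and the mixed subset gave 0.14 between LD and sham. Among all genes some were called: 9 with quality weights, 4 with voom and 13 without TAC 1 between TAC and sham, and 135 with quality weights, 3 with voom, 10 with only the 6 libraries and 8 without TAC 1 between LD and sham. Leaving out other single libraries called at most 2. The quality weight was 4.74 for LD 2, against 0.74 for LD 1 and 0.40 for LD 3, so that weighted LD levels rested mainly on LD 2. The cause of the changes below was not tested.

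Counts below are members at an unadjusted p under 0.05 or without overlap of groups, with the share of all genes in that fit in brackets. Between TAC and sham, 2 were higher without the filter (2.55%), with only these 6 libraries (2.77%) or with library quality weights (4.09%), and 5 were higher without overlap when no filter was used (4.24%). These 5 included Igtp and Tap1, which reached at most 0.1996 and 0.454 FPKM in any heart. Voom on recovered fragments gave 1 lower between TAC and sham (2.45%). Between LD and TAC, median-of-ratios scaling left 4 lower without overlap (5.61%), quality weights gave 2 higher and 4 lower (5.51% and 9.27%), and voom gave 2 higher (1.92%). Between LD and sham, 3 were lower with only these 6 libraries (5.04%), with quality weights (12.0%) or with voom (6.76%), and quality weights gave 1 higher (7.42%). Single genes changed sign as follows. Quality weights gave between TAC and sham -0.0022 for Ddx58, -0.29 for Irf7, -0.32 for Oas2 and 0.026 for Ifi27, between LD and TAC 0.067 for Irf7 and 0.19 for Ifi27, and between LD and sham 0.42 for Isg15 and 0.21 for Ifi27. Voom gave -0.018 for Oas2 between TAC and sham and 0.13 for Isg15 between LD and sham. Median-of-ratios scaling gave Ifi27 0.13 between LD and TAC and 0.034 between LD and sham.

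Leaving out 1 library at a time, members at an unadjusted p under 0.05 between TAC and sham numbered 1 to 11 higher (1.67% to 5.18% of all genes) and 0 to 2 lower (1.51% to 4.95%), and those without overlap 3 to 13 higher (5.23% to 15.1%) and 0 to 3 lower (4.58% to 13.2%). Between LD and TAC the counts were 0 to 2 higher (1.83% to 4.94%) and 3 to 19 lower (2.75% to 10.5%), and without overlap 1 to 2 higher (3.72% to 9.98%) and 8 to 22 lower (8.16% to 19.2%). Between LD and sham 1 to 3 were lower (1.59% to 7.37%), and without overlap 2 to 4 higher (4.46% to 10.3%) and 3 to 10 lower (8.76% to 22.3%). The differences with either sign between TAC and sham ran over -0.055 to 0.29 for Ddx58, -0.46 to 0.71 for Irf7, -0.36 to 0.81 for Oas2, -0.36 to 0.50 for Bst2, -0.35 to 0.40 for Iigp1 and -0.41 to 0.32 for Ifi27. Between LD and TAC they ran over -1.50 to 0.14 for Isg15, -1.02 to 0.15 for Irf7 and -0.41 to 0.32 for Ifi27, and between LD and sham over -0.88 to 0.75 for Isg15, -0.77 to 0.084 for Bst2 and -0.29 to 0.10 for Ifi27.

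A pairing of hearts by replicate number was not seen: correlations of same-numbered deviations ran between -0.236 and 0.146. With 3 hearts in each group such correlations cannot exclude a pairing. With a replicate block 0 members passed in any comparison, and at an unadjusted p under 0.05 there was 1 higher between TAC and sham (2.37% of all genes), 10 lower and 1 higher between LD and TAC (4.94% and 2.21%), and 1 lower between LD and sham (2.89%).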
